A study of Mus musculus with 14 samples.

Results

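Chaperones of the endoplasmic reticulum (ER) and genes of the unfolded protein response, 31 in all, were followed in SCp2, a mouse mammary epithelial cell line. The list was given by name and holds 31 of the 18193 genes that the arrays name. Each gene was read from the probe set that names it alone and has the largest SD over the 14 arrays. All 31 genes had such a probe set, and all 31 passed the filter on SD that left 11812 genes to test. Ern1 and Sel1l passed only through the array labelled MMP3 100K of experiment B. Without it their SDs were 0.025 and 0.023, under the cut of 0.0490. Groups were control cells and cells given MMP3, with no genotype or other agent named in the labels. All dishes shared the SCp2 line, DMEM with 2% fetal calf serum, 35 mm dishes and 3 days of culture with or without MMP3 (matrix metalloproteinase-3, a secreted protease that cuts matrix and cell surface proteins). Experiment A held a control and an MMP3 dish at 50K, 100K and 250K cells plated, 6 arrays in all. Experiment B held the same and a pair at 25K, 8 arrays in all. Each combination was 1 array, all came from 1 cell line, and the labels do not say whether dishes of an experiment came from separate cultures. The p-values therefore measure only the spread between these dishes, which may be technical.

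Proteins that enter the secretory pathway fold in the ER with the help of chaperones, lectins and disulfide enzymes, and those that fail are pulled back to the cytosol and degraded. When unfolded protein builds up, 3 membrane sensors respond: Ern1 splices the Xbp1 messenger, Eif2ak3 phosphorylates the translation factor eIF2 alpha, and Atf6 travels to the Golgi and is cut into a transcription factor. Their outputs raise chaperones and degradation genes and, through Atf4, genes of amino acid supply and Ddit3. Secretory epithelium such as the milk-producing mammary gland is known for its large folding load.

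Every probe set was centred on its own median across the arrays, so a value is relative log2 expression: it can be compared between arrays, and not between genes. The log base is not stated in the sources used here and log2 is taken from RMA, the method named by the submitters. Changes were called at an adjusted p under 0.05 in limma with Benjamini-Hochberg adjustment over the 11812 tested genes. The number of arrays limits the precision.

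The classical binding site behind this response is the ER stress element, in which a CCAAT box and CCACG lie 9 bases apart, and ER stress element II has ATTGG and CCACG 1 base apart. Promoter sequences from RefSeq (GRCm38.p6) were at hand for 26 of the 31 genes, and the 250 bases before the start were searched on both strands. The first element was found in 9 of 26 (34.6%) and in 35 of all 27025 genes of the table (0.13%), or 0.113% of its 32851 promoters. The second was found in 1 of 26 (3.85%), Herpud1, and in 0.037% of all genes. The sequences below belong to genes that moved with MMP3 in experiment A and, for contrast, to Hspa5, Hsp90b1 and Calr, which hold the same element and did not pass the test. Each is written 5′ to 3′ on the strand of its gene, and capitals mark the element with its spacer.
Hspa5 (chr2:34772005-34772063, plus strand): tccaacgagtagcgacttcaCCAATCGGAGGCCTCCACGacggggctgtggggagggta
Hsp90b1 (chr10:86705513-86705676, minus strand): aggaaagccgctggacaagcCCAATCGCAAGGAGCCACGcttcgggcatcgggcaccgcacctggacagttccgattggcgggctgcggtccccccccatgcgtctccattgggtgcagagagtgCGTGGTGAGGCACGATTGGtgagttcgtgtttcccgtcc
Calr (chr8:84847055-84847113, minus strand): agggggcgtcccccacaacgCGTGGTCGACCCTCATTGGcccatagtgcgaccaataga
Canx (chr11:50325780-50325838, minus strand): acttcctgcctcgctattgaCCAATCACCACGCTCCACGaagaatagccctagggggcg
Dnajc3 (chr14:118937807-118937865, plus strand): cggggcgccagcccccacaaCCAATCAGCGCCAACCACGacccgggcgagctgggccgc
Syvn1 (chr19:6046512-6046570, plus strand): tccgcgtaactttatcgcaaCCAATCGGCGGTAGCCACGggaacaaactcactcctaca
Herpud1 (chr8:94386357-94386407, plus strand): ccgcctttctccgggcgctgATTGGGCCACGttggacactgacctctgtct
Hsp90b1 holds the element on both strands, and the element of Calr lies on the strand opposite to the gene. Counted from its first base as written, the last element began 44 bases before the start in Syvn1, 52 in Herpud1, 65 in Hspa5, 105 in Dnajc3, 107 in Hsp90b1, 145 in Canx and 162 in Calr. Creld2, Pdia6 and Derl3 hold the first element as well. A match is a description of the letters in this window and not a measured site. Of the 10 genes with either element, 3 rose and 1 fell with MMP3 in experiment A, with a median effect of 0.15 on the log2 scale. Of the 16 without one, 4 rose and 1 fell, with a median of 0.21. Of all tested genes 14.5% were called higher and 10.5% lower in that comparison, so nothing is read from these small counts.

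Some arrays stood apart or went against their labels. The array labelled MMP3 100K of experiment B held the largest absolute value of 5806 of the 11812 genes (49.2%) and of 14 of the 31 members. Its values had an SD of 1.29 over tested genes, against 0.34 to 0.62 on the other 13. The 3′ minus 5′ signal of the actin control probe sets was 0.65 there and at most 0.19 elsewhere. In experiment B the interferon-induced gene Ifit1, chosen after its values were seen because it separated the agents widely in A, did not follow the labels. In A it lay at -2.98 to -2.91 in controls and 2.83 to 4.21 with MMP3. In B it lay at -2.93 and -2.93 in controls at 25K and 100K but at 3.71 and 4.26 in controls at 50K and 250K. With MMP3 in B it lay at -2.83 and -2.97 at 25K and 100K and at 4.53 and 5.15 at 50K and 250K, so 4 of the 8 arrays were on the side of the opposite label of A. Labels were kept as deposited, experiment A was fitted alone as the value without these arrays, and in B each array is called by its label.

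Markers of the labelled and of other cell types could be read only as differences, since a centred table cannot show whether a marker is at 0. In A, of 8 epithelial markers 4 were tested, and Epcam (1.18) and Cdh1 (0.89) rose, Krt5 (-1.03) fell and Krt14 (-0.38) was not called. The mean epithelial marker value ran from -0.12 to 0.05 in controls and 0.02 to 0.19 with MMP3. Of fibroblast markers 2 of 8 and of macrophage markers 4 of 8 were tested, and 0 were called at the adjusted threshold. Fibroblast means ran from -0.24 to 1.07 in controls and -0.50 to 0.15 with MMP3, and macrophage means from 0.02 to 0.45 and -0.033 to -0.0035. No endothelial marker passed the filter. RNA measures moved with the agent in A: the 18S control probe set lay at 0.45 to 0.83 in controls and 0.92 to 1.15 with MMP3, and the Gapdh 3′ minus 5′ signal at -0.03 to 0.03 and 0.04 to 0.17. Their part in the results was not tested.

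In experiment A, MMP3 dishes had more of a set of co-chaperones and stress sensors and less Herpud1 and Vldlr, while the chaperones Hspa5, Hsp90b1 and Calr did not pass the test. In whole dishes, fewer cells with a transcript and less of it per cell cannot be told apart. Of the 31 genes, 9 rose and 2 fell. Of all tested genes, 25.1% were called, 14.5% higher and 10.5% lower. The members' median effect was 0.22, against -0.02 over all tested genes, and single effects ran from -1.94 for Vldlr to 1.34 for Dnajc3. The 3 MMP3 values lay above all 3 control values in 12 genes (19.5% of all tested genes) and below them in 4 (23.3%), and overlapped in 15. Among the 4 was Sel1l, whose nearly flat probe set had means of 0.004 in controls and -0.026 with MMP3. With any 1 of the 6 arrays left out, 0 of the 31 genes and 0 of all tested genes passed, with 1 residual degree of freedom left. Dnajc3 then lay between 1.30 and 1.43 and Herpud1 between -1.43 and -1.18. Without the filter on SD, Dnajb11, Syvn1, Atf6, Ppp1r15a and Vldlr no longer passed, and with matched dishes paired, Canx, Dnajb11 and Vldlr did not. Syvn1 was lost with arrays centred on their median, and Syvn1 and Ppp1r15a with robust eBayes. Without the product of agent and density Canx was lost and Ero1a passed (0.58, limma adjusted p = 0.0420).

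**Figure D1:**
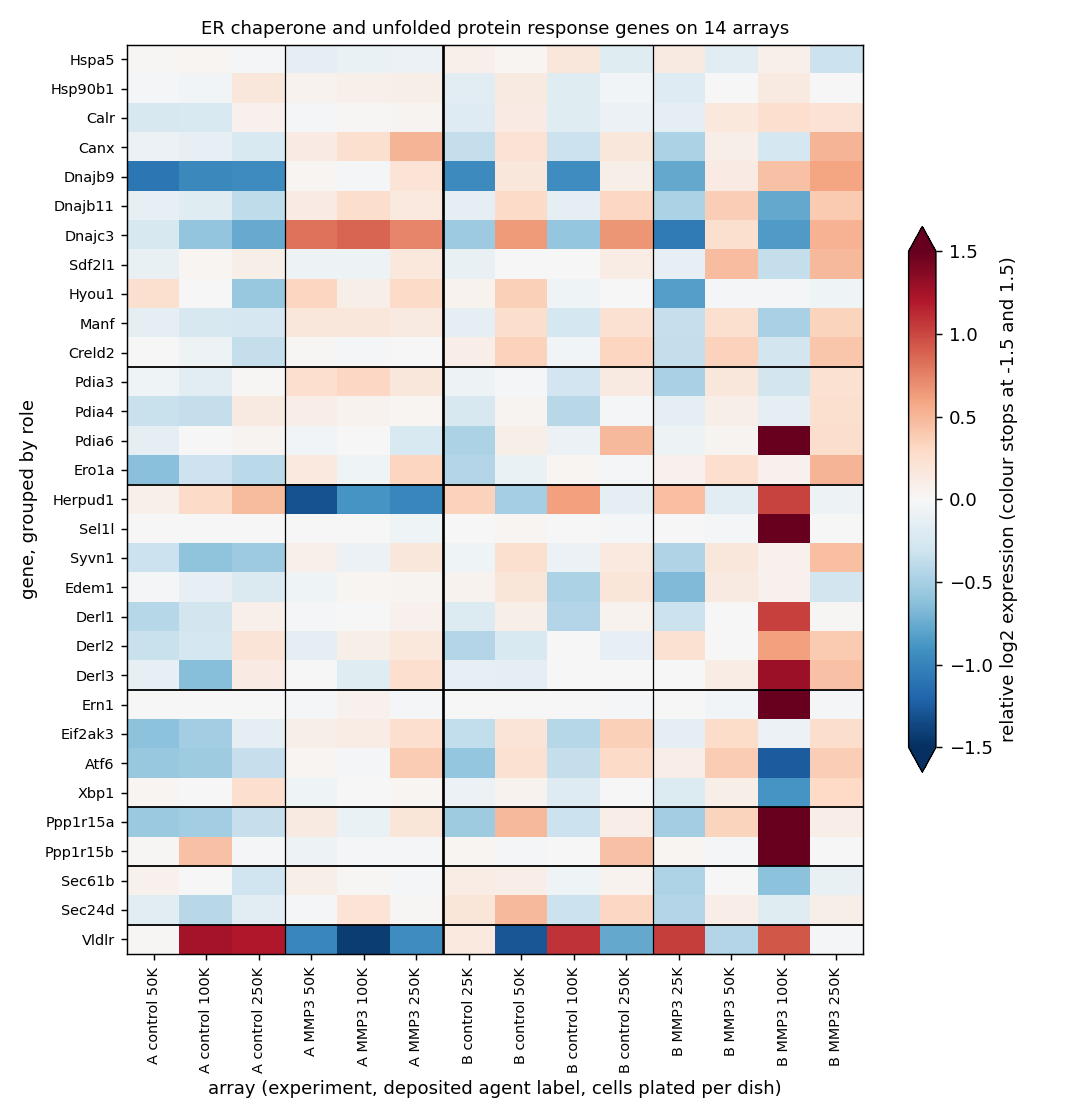
Relative log2 expression (colour, blue below and red above the probe set's median) of the 31 genes (rows, grouped by role with black lines) on the 14 arrays (columns, by experiment, deposited label and cells plated). In experiment A the Dnajb9 and Dnajc3 rows turn from blue to pale or red with MMP3 and the Herpud1 and Vldlr rows turn blue. The array labelled MMP3 100K of B holds the darkest cells of Ern1, Sel1l, Ppp1r15a, Pdia6 and Ppp1r15b, and the colour stops at -1.5 and 1.5.

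Of the 11 chaperones and folding factors, 5 rose, 0 fell and the median effect was 0.34. Dnajc3, a co-chaperone of Hspa5 that also restrains eIF2 alpha kinases, lay at -0.25, -0.59 and -0.76 in the controls of A at 50K, 100K and 250K and at 0.81, 0.87 and 0.73 with MMP3. The groups were far apart, and the effect was 1.34 (SE 0.07, 2.53-fold, limma adjusted p = 0.0125, higher in 3 of 3 pairs of dishes). Its other 4 probe sets also had MMP3 above control without overlap, with mean differences from 0.68 to 0.89. Dnajb9, a J-domain co-chaperone that binds misfolded protein and holds the sensor Ern1 in check, lay at -1.08, -0.97 and -0.95 in controls and 0.02, -0.02 and 0.20 with MMP3. The control values were tight (mean -1.00 ± 0.07, SD, n = 3), and the effect was 1.07 (SE 0.07, 2.09-fold, limma adjusted p = 0.0133).

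The other 3 called folding genes moved less. Canx, the membrane lectin that holds glycoproteins while they fold, lay at -0.09, -0.12 and -0.23 in controls and 0.13, 0.23 and 0.52 with MMP3. Its effect was 0.44 (SE 0.05, limma adjusted p = 0.0225), but a second probe set gave a mean difference of -0.05, and the mean of its probe sets did not pass (0.17, limma adjusted p = 0.0641). Dnajb11, another J-domain partner of Hspa5, lay at -0.13, -0.19 and -0.38 in controls and 0.13, 0.27 and 0.14 with MMP3, an effect of 0.41 (SE 0.07, limma adjusted p = 0.0367). Manf, a small secreted factor that binds Hspa5, lay at -0.14, -0.24 and -0.26 in controls and 0.18, 0.17 and 0.13 with MMP3. Its effect was 0.37 (SE 0.05, limma adjusted p = 0.0260), with no overlap and little spread in either group.

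Hspa5, the main ER chaperone and the usual gauge of ER stress, gave no call and no settled direction. It lay at 0.02, 0.03 and -0.02 in the controls of A and -0.13, -0.10 and -0.09 with MMP3, an effect of -0.11 (SE 0.05, limma adjusted p = 0.184). A second probe set had MMP3 above control without overlap, with a mean difference of 0.18, and the remaining one gave 0.06. These differences are small beside those of Dnajc3 and Dnajb9, and the probe sets disagree in sign. Hsp90b1, the ER member of the Hsp90 family, lay at -0.04, -0.04 and 0.17 in controls and 0.05, 0.07 and 0.09 with MMP3 (effect 0.04, limma adjusted p = 0.648). Calr, the soluble partner of Canx, lay at -0.24, -0.22 and 0.06 in controls and -0.01, 0.01 and 0.04 with MMP3 (effect 0.15, limma adjusted p = 0.176). In both genes the control dish at 250K was the high one and the groups overlapped. Sdf2l1 and Creld2, both classical stress targets, had effects of 0.00 and 0.14, and Hyou1, the exchange factor of Hspa5, had 0.34 (limma adjusted p = 0.101). By its chosen probe set the value for Hyou1 came mostly from the 250K pair (0.85, against 0.08 and 0.08). A second probe set of Hyou1 had MMP3 above control without overlap, with differences of 0.24, 0.32 and 0.28, and the remaining one gave 0.07. With its probe sets averaged Hyou1 did not pass (0.23, limma adjusted p = 0.0643).

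**Figure D2:**
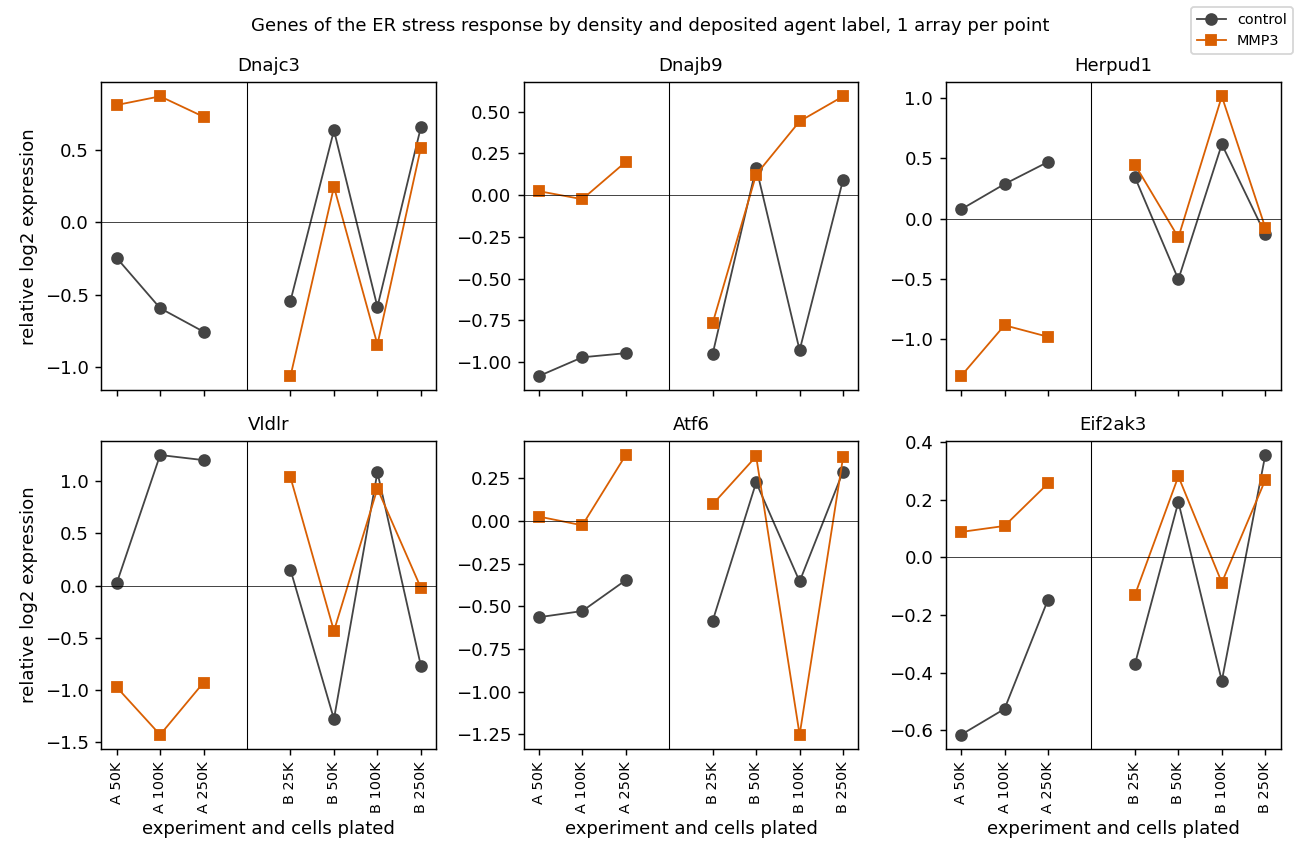
Relative log2 expression (vertical axis) of 6 genes by experiment and cells plated (horizontal axis), with 1 array per point, control dishes as dark circles and MMP3 dishes as orange squares. In experiment A the 2 lines are apart for every gene, while in experiment B both lines go up and down together between densities for Dnajc3, Herpud1 and Eif2ak3.

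None of the 4 disulfide enzymes passed, with a median effect of 0.28. Pdia3, which works with Canx and Calr on glycoproteins, had MMP3 above control in A without overlap (effect 0.31, limma adjusted p = 0.0681). Pdia4 and Pdia6, both protein disulfide isomerases, had effects of 0.25 and -0.06. Ero1a, the oxidase that recharges them, lay at -0.63, -0.31 and -0.41 in controls and 0.15, -0.07 and 0.32 with MMP3. Its MMP3 values were all above the controls, and the effect of 0.58 (SE 0.14) missed the threshold (limma adjusted p = 0.0675).

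Of the 7 degradation genes, 1 rose, 1 fell and the median effect was 0.17. Herpud1, a membrane protein that helps assemble the degradation complex, moved against the co-chaperones. It lay at 0.08, 0.29 and 0.47 in the controls of A and at -1.31, -0.89 and -0.98 with MMP3. The effect was -1.34 (SE 0.11, a 2.53-fold fall, limma adjusted p = 0.0156), and its second probe set also had MMP3 below control without overlap, by a mean of -1.02. Syvn1, the ubiquitin ligase at the centre of the same complex, went the other way, at -0.32, -0.60 and -0.55 in controls and 0.08, -0.09 and 0.17 with MMP3. Its effect of 0.54 (SE 0.11) passed narrowly (limma adjusted p = 0.0491), and a second probe set had a mean difference of 0.48.

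The remaining degradation genes were not called by their chosen probe sets. Derl2 and Derl3, membrane proteins of the export channel, had effects of 0.17 and 0.23 and Edem1, which hands misfolded glycoproteins on, had 0.13. Derl1, of the same family as Derl2, had 0.22 (limma adjusted p = 0.0689). Sel1l, the scaffold that holds Syvn1, had -0.03. These values depend on the probe set. A further probe set of Derl2 and one of Edem1 had MMP3 above control in A without overlap, with mean differences of 0.24 and 0.25. With probe sets averaged, Derl2 (0.20, limma adjusted p = 0.0382) and Derl1 (0.28, limma adjusted p = 0.0253) passed in A. Edem1 did not (0.19, limma adjusted p = 0.0561). The chosen probe sets of Derl1 and Sel1l reached 1.03 and 2.60 on the array labelled MMP3 100K of B, and that array gave them the largest SD. When the SD was taken over the other 13 arrays, a choice made after seeing the data, the probe set changed for 5 genes: Calr, Sel1l, Derl1, Ern1 and Ppp1r15b. Derl1 then had an effect of 0.57 (limma adjusted p = 0.0175), and Sel1l of -0.14 (limma adjusted p = 0.341).

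Of the 4 sensors and transcription factors, 2 rose. Eif2ak3, the kinase that slows translation under stress, lay at -0.62, -0.53 and -0.15 in the controls of A and 0.09, 0.11 and 0.26 with MMP3. Its effect was 0.58 (SE 0.07, limma adjusted p = 0.0206), and the mean of its 3 probe sets, of which the other two differed by -0.03 and -0.01, gave 0.18 (limma adjusted p = 0.0520). Atf6, the membrane-bound transcription factor, lay at -0.56, -0.53 and -0.35 in controls and 0.03, -0.03 and 0.39 with MMP3. Its effect was 0.61 (SE 0.09, limma adjusted p = 0.0297), and the mean over its 3 probe sets, of which 1 had a difference of -0.04, gave 0.29 (limma adjusted p = 0.0394). Both groups were apart in both genes, with the 250K dish the highest in each group.

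Xbp1, whose messenger Ern1 splices, lay at 0.03, -0.01 and 0.25 in controls and -0.07, -0.01 and 0.03 with MMP3, an effect of -0.11 (limma adjusted p = 0.332). A second probe set had MMP3 below control without overlap, with a mean difference of -0.25, and the remaining ones gave -0.18 and 0.03. These probe sets read total Xbp1, and splicing was not measured. Ern1 itself could not be settled. Its chosen probe set ran only from -0.05 to 0.06 on 13 arrays and reached 3.03 on the array labelled MMP3 100K of B, and its effect in A was 0.01 (limma adjusted p = 0.925). A different probe set, chosen when that array is left out, had controls below MMP3 in all 3 pairs, with differences of 0.92, 0.75 and 0.69. By that one the effect was 0.79 (SE 0.10, limma adjusted p = 0.0236), and a further probe set had a mean difference of -0.17.

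**Figure D3:**
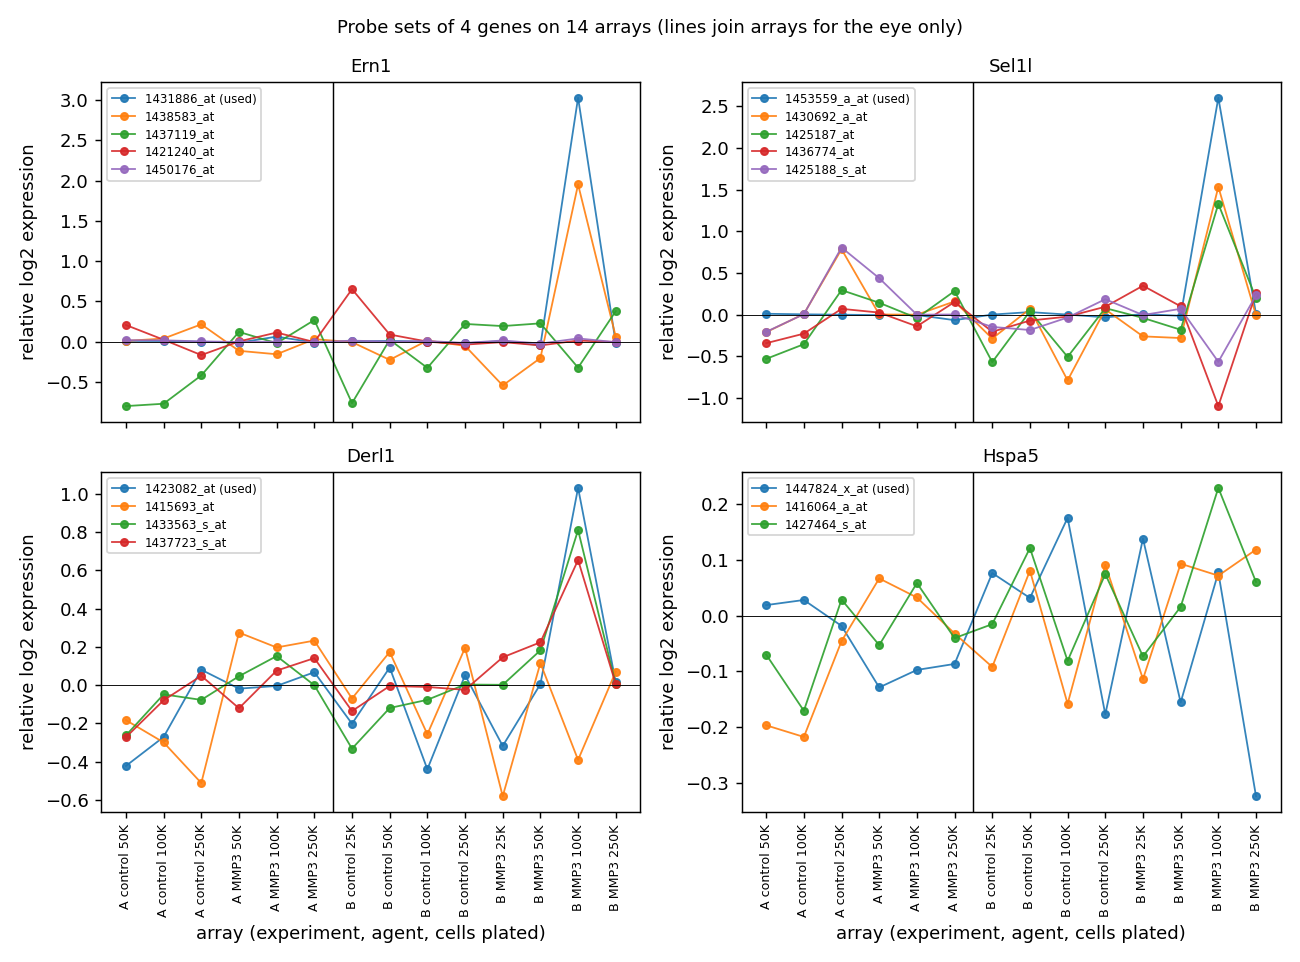
Relative log2 expression (vertical axis) of every probe set of Ern1, Sel1l, Derl1 and Hspa5 on the 14 arrays (horizontal axis), with lines that only join the points of a probe set. The probe sets used for Ern1 and Sel1l are flat near 0 except on the array labelled MMP3 100K of B, at 3.03 and 2.60. For Hspa5 the used probe set is lower and another higher with MMP3 in experiment A.

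Of the phosphatase subunits that undo the mark set by Eif2ak3, the stress-induced Ppp1r15a rose and the constitutive Ppp1r15b was not called (effect -0.18, limma adjusted p = 0.466). Ppp1r15a lay at -0.56, -0.53 and -0.35 in the controls of A and 0.14, -0.09 and 0.18 with MMP3. Its effect was 0.55 (SE 0.10, limma adjusted p = 0.0433), with no overlap. Sec61b, a subunit of the channel through which proteins enter the ER, and Sec24d, a cargo adaptor of the COPII vesicles that leave it, had effects of 0.10 (limma adjusted p = 0.279) and 0.32 (limma adjusted p = 0.165).

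Vldlr, a receptor of the LDL receptor family that is a client of ER folding and a reported target of the Eif2ak3 branch, had the largest effect of the 31 genes. It lay at 0.02, 1.25 and 1.20 in the controls of A and -0.97, -1.43 and -0.93 with MMP3. The 50K control was well below the other controls and still above every MMP3 dish. The effect was -1.94 (SE 0.32, a 3.82-fold fall, limma adjusted p = 0.0340). With the matched dishes paired it did not pass (limma adjusted p = 0.0686). All 6 probe sets of Vldlr had MMP3 below control without overlap, with mean differences from -1.94 to -1.12.

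**Figure D4:**
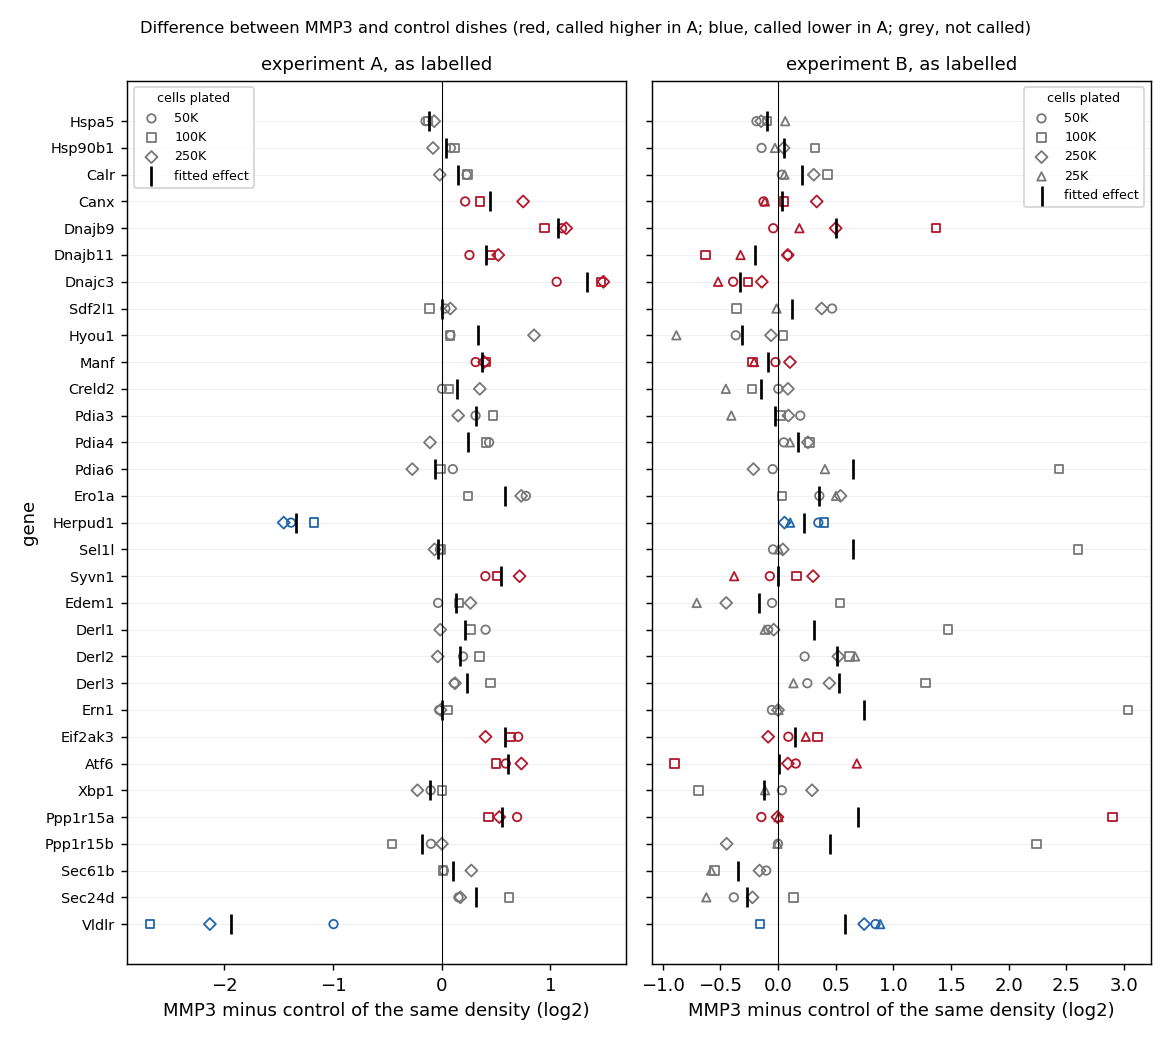
MMP3 minus control of the same density (horizontal axis, log2) for each of the 31 genes (vertical axis) in experiment A (left) and B (right), with a symbol for each density and a black bar for the fitted effect. Colour marks the call in A: 9 genes in red lie to the right of 0 on the left panel and Herpud1 and Vldlr in blue to the left. On the right panel the points of most genes lie on both sides of 0, and the 100K pair is far out for Ern1, Ppp1r15a, Sel1l, Pdia6 and Ppp1r15b.

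Other genes of the pathway, from lists that hold none of the 31, were counted in the same fit of A. The lists were written with earlier results of these data known, so their counts are description and not support. Of 14 tested genes of the Atf4 branch, a list that also holds eIF2 alpha kinases, 3 rose and 7 fell, with a median of -0.71. Of all tested genes 14.5% were called higher and 10.5% lower. Trib3, a pseudokinase induced by Atf4 and Ddit3, had -2.17 (SE 0.26, limma adjusted p = 0.0225), Ddit3, the stress-induced transcription factor, -1.51 (SE 0.10, limma adjusted p = 0.0133), and its partner Cebpb -1.24 (SE 0.10, limma adjusted p = 0.0148). Eif2ak2, an eIF2 alpha kinase that is also induced by interferon, rose by 1.80 (SE 0.10, limma adjusted p = 0.0128). Nupr1 (1.19, limma adjusted p = 0.0378) and Atf3 (0.48, limma adjusted p = 0.0426) rose as well. Atf4 itself fell (-0.78, limma adjusted p = 0.0448). So did Asns (-1.14, limma adjusted p = 0.0148), Cebpg (-0.94, limma adjusted p = 0.0377) and Sesn2 (-0.57, limma adjusted p = 0.0183). In A the phosphatase subunit Ppp1r15a thus had more messenger with MMP3. So did the sensor Eif2ak3 by its chosen probe set, though the mean that takes in its nearly flat probe sets did not pass. Of the Atf4 branch, Atf4, Ddit3 and Trib3 were among the 7 genes that had less, and Nupr1 and Atf3 among the 3 that had more.

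The other lists had medians between 0.03 and 0.30, and their counts stand beside the same shares of all tested genes, 14.5% higher and 10.5% lower. Of 16 further ER-associated degradation genes 6 rose and 0 fell (median 0.30), led by the ubiquitin-conjugating enzyme Ube2j1 (1.28), then Faf2 (0.75), Nploc4 (0.69) and Selenos (0.64). Of 14 tested stress transducers and their processing factors 4 rose and 1 fell (median 0.15), among them the Atf6-like factor Creb3 (1.22), Wfs1 (1.12), the Golgi protease Mbtps1 that cuts Atf6 (0.92), and Tmbim6 (0.82). Of 24 other folding enzymes 7 rose and 3 fell (median 0.03), with the prolyl isomerase Fkbp14 at 1.31, the oxidase Ero1b at 0.69, Sdf2 at 0.65 and the glucosyltransferase Uggt1 at 0.63. Of 26 translocon and signal peptidase genes 6 rose and 3 fell (median 0.11), with Sec63 at 1.07 and Dad1 at 0.54 against Ssr1 and Sec62, both at -0.60. Of 23 genes of ER to Golgi transport 4 rose and 0 fell (median 0.20), with Mcfd2 at 0.94, Sec23b at 0.58, Sar1a at 0.51 and Sar1b at 0.28. The highest limma adjusted p among these named genes was 0.0428.

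**Figure D5:**
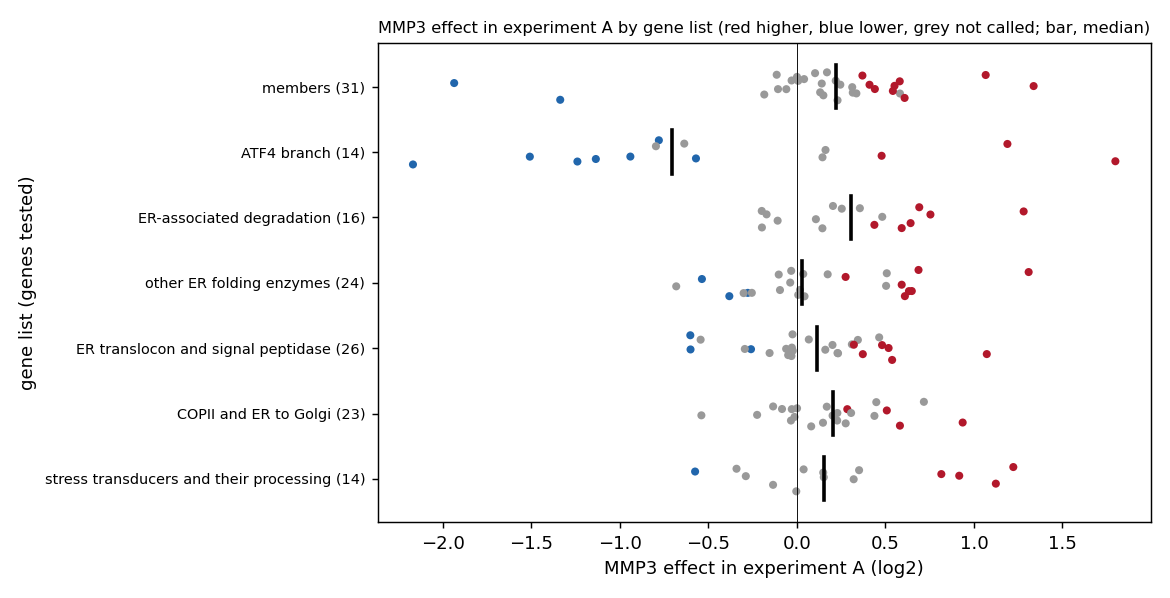
MMP3 effect in experiment A (horizontal axis, log2) of each tested gene, as 1 point, in the 31 members and 6 other lists (vertical axis, with the number tested), red where called higher, blue where called lower, grey where not called, with a bar at the median. The Atf4 branch has its median at -0.71 and the other lists have theirs between 0.03 and 0.30.

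In experiment B, taken as labelled, none of these changes passed the test. Of the 31 genes 0 were called, as of all tested genes (0%), and at an unadjusted p under 0.05 there were 2 of 31, Ero1a (0.36) and Derl2 (0.51), against 11.6% of all tested genes. The members' median effect was 0.12, or 0.05 without the array labelled MMP3 100K, and it ran from 0.0044 (without the control 100K dish) to 0.17 (without the MMP3 25K dish) with each array left out. It was also low, at 0.04, without the MMP3 50K dish. MMP3 values lay above all controls in 2 genes, Ero1a and Derl3 (5.2% of all tested genes), and below them in 0 (5.39%). Dnajc3 lay at -0.54, 0.64, -0.58 and 0.66 in the controls of B at 25K, 50K, 100K and 250K and at -1.06, 0.25, -0.85 and 0.52 with MMP3. Its values thus alternated between densities in both groups, with MMP3 lower in 4 of 4 pairs.

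Several other genes called in A alternated in the same way. Herpud1 lay at 0.34, -0.51, 0.62 and -0.13 in the controls of B and 0.45, -0.16, 1.02 and -0.08 with MMP3. Vldlr lay at 0.15, -1.28, 1.09 and -0.77 in the controls and 1.04, -0.43, 0.93 and -0.02 with MMP3. Where Ifit1 was high, at 50K and 250K, Herpud1 and Vldlr were low and Dnajc3 was high under either label. Dnajb9 lay at -0.95, 0.17, -0.93 and 0.09 in controls and -0.76, 0.12, 0.44 and 0.59 with MMP3, so only its 100K pair differed widely, and that pair holds the array that stood apart. Atf6 lay at -0.58, 0.23, -0.35 and 0.29 in controls and 0.10, 0.38, -1.25 and 0.37 with MMP3, and Eif2ak3 at -0.37, 0.19, -0.43 and 0.35 and then -0.13, 0.28, -0.09 and 0.27.

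Each array of B was set beside the group means of A for the 11 genes called there. In the control dishes at 50K and 250K, 11 and 10 of the 11 genes were nearer to the MMP3 mean of A, and in those at 25K and 100K 1 and 1. In the MMP3 dishes at 50K and 250K 10 and 9 were nearer to it, and in those at 25K and 100K 2 and 4. Over the 2960 genes called in A the shares were 89.9% and 89.3% for the controls at 50K and 250K, 17.7% and 10.1% for those at 25K and 100K, 82.2% and 72.0% for MMP3 at 50K and 250K, and 11.9% and 23.6% for MMP3 at 25K and 100K. No cause of this was tested.

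Whether the MMP3 effect differed between A and B was tested on the 12 arrays at the densities they share. None of the 31 genes passed, as of all tested genes (0%), and 3 had an unadjusted p under 0.05 (13.7% of all tested genes): Dnajc3 (-1.60, SE 0.60), Herpud1 (1.60, SE 0.51) and Vldlr (2.41, SE 0.87), all with a limma adjusted p of 0.362.

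Over all 14 arrays with the experiment as a block, 1 of the 31 genes passed, against 2.75% of all tested genes, and 1.34% of them were called higher. Ero1a was that gene. In B it lay at -0.44, -0.10, 0.03 and -0.03 in controls and 0.06, 0.26, 0.07 and 0.51 with MMP3. It was higher with MMP3 in 7 of 7 pairs, and the groups did not overlap within either experiment. The effect was 0.45 (SE 0.09, limma adjusted p = 0.0395). The other probe sets of Ero1a disagreed in A: one had a mean difference of 0.24 and was higher in 3 of 3 pairs, and the other -0.19, with MMP3 below control without overlap. With its probe sets averaged the effect was 0.20 (limma adjusted p = 0.0419). The call was lost without the block, with the 7 pairs as the block, on the 12 arrays at shared densities, with the stricter filter, and without any 1 of 10 arrays (all but the control 250K and MMP3 100K dishes of A and the control 50K and MMP3 100K dishes of B). Dnajb9 had the largest effect over 14 arrays (0.74, limma adjusted p = 0.0856) and, among the alternatives run, passed only without the control 50K dish of B (0.89, limma adjusted p = 0.0196). Atf6 passed without the MMP3 100K dish of B (0.50, limma adjusted p = 0.0397), and Derl2 without the control 250K dish of A (0.42, limma adjusted p = 0.0495) and with probe sets averaged (0.21, limma adjusted p = 0.0384).

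Cell density gave no called change in the 31 genes. Over 14 arrays 0 had an adjusted p under 0.05 for the slope per doubling of plated cells (0% of all tested genes), and 4 had an unadjusted one (11.5% of all tested genes): Dnajb9 (0.22), Canx (0.13), Derl2 (0.12) and Ero1a (0.11). Slopes were positive in 27 of the 31 genes and in 5986 of all 11812 tested genes, with medians of 0.07 and 0.00. Within A they were positive in 19 of the 31 genes (5459 of all tested genes), and within B in 28 (6019). In B the arrays high in Ifit1 had, under both labels, a higher mean log2 density than those low in it. Slopes of B and of the 14 arrays therefore hold this split as well as density. Its part was not tested, so the counts of positive slopes are not read as a density trend. The 3 negative slopes of B were those of Hspa5 (-0.09), Herpud1 (-0.05) and Vldlr (-0.12), which had MMP3 below control in A. Sel1l, also lower there, had a positive slope in B (0.09). In A 0 were called (0% of all tested genes), and 6 passed unadjusted (29.7% of all tested genes). Derl2 (0.18), Eif2ak3 (0.14) and Derl1 (0.13) had positive slopes there and Hyou1 (-0.18), Dnajc3 (-0.13) and Sec61b (-0.10) negative ones. In B 0 were called (0%) and 0 passed unadjusted (3.98% of all tested genes). The product of agent and density was called for 0 genes (0%), and 1 of 31 passed unadjusted (1.93% of all tested genes), Hyou1 (0.33).

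The 31 genes differed widely in how much they varied. The range over the 14 arrays was above 1 in 18 genes, and in 9 once the array labelled MMP3 100K of B was left out. Over those 13 arrays it was under 0.5 in 4 genes. Of the 21 genes with several probe sets past the filter, 9 had another one with the opposite sign in A: Atf6, Canx, Eif2ak3, Ern1, Ero1a, Hspa5, Pdia6, Sel1l and Xbp1. Some of these signs rest on values near 0. The other probe set of Eif2ak3 differed by -0.03, and the used ones of Ern1 and Sel1l by 0.01 and -0.03. The remaining genes, among them Dnajc3, Herpud1, Vldlr and Syvn1, had the same sign in every such probe set.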

How the data were processed

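RNA of 14 dishes of SCp2 cells (200 ng per array) was measured on Affymetrix mouse arrays. The authors made the deposited values with RMA, per the submitters' processing notes, and they are taken as log2 because RMA gives that base, which is not itself stated. Its version and all further steps are not given in the sources at hand. Each of the 45101 probe sets had its median over the arrays at 0 within 1e-06, a centring seen in the values and not stated. Columns that belong to no sample of the series numbered 0. Signal over background cannot be read from centred values.

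The labels gave each array its agent, density and experiment, and the experiment letter served as the replicate. Of 45037 probe sets that are not controls, 34945 named 1 gene. A gene was read from the probe set with the largest SD and tested where that SD reached the 40th percentile (0.0490). Models were fitted in R 4.3.3 by lmFit and eBayes of limma 3.58.1 (Benjamini-Hochberg adjustment, threshold 0.05), with agent, centred log2 density and their product, and over 14 arrays the experiment as a block. Residual degrees of freedom were 2 in A, 4 in B, 9 over 14 arrays and 7 for the difference between experiments. The fits were tested on simulated data. The letters mark experiments in the labels, hence the block. Deviations from the means of the 6 combinations measured in both experiments correlated at 0.06 on average between combinations (range -0.67 to 0.65, over genes). Arrays of B on the side opposite to their label enter these deviations. The average is therefore not read as a lack of a shared deviation.

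Members, lists and tests were chosen with earlier results of these data known. Array values are given for Hspa5, Hsp90b1, Calr, Herpud1, Xbp1, Ern1 and Vldlr, for members called, and, chosen after their values were seen, for Ero1a. From each pathway list up to 4 called genes with the largest change were named. Nupr1 and Atf3 were added because they rose, and then the remaining called genes of the Atf4 list. The planned reading of the last residues of each protein is not analysed here. Alternatives were probe sets averaged per gene, no filter, a filter at the 60th percentile, arrays centred on their median, robust eBayes, other designs, each array left out, and, added after seeing the data, probe sets chosen over 13 arrays.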

Additional observations from a re-analysis of the deposited data

Results flagged for a closer look

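For 3 genes the pairs of dishes of experiments A and B all went opposite ways as labelled. Dnajc3 was higher with MMP3 in 3 of 3 pairs of A and lower in 4 of 4 of B, and the difference between the experiments was -1.60 on the log2 scale (SE 0.60). Herpud1 was lower in 3 of 3 pairs of A and higher in 4 of 4 of B, with a difference of 1.60 (SE 0.51). Sec61b was higher in 3 of 3 pairs of A, by only 0.02, 0.01 and 0.27 and with overlapping groups, and lower in 4 of 4 of B. Its difference between the experiments was -0.37 (SE 0.23). How many of all tested genes had such opposite pairs was not counted. The difference was tested in limma on 12 arrays, and it did not pass for any of the 3 (adjusted p of 0.362, 0.362 and 0.431). In B the arrays at 50K and 250K stood apart from those at 25K and 100K under both labels for Dnajc3 and Herpud1, and the part of this in the opposite signs was not tested.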

How the results depend on the processing

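In experiment A, where 11 of the 31 genes passed, the count was 6 without a filter (1271 of all genes called, against 2960) and 0 to 0 with each array left out, a fit with 1 residual degree of freedom. It lay between 8 and 13 under the other 7 alternatives, where 1908 to 3549 of all genes were called. With the stricter filter 12 of 27 genes passed, beside 3549 of all 8857 tested. Dnajb9, Dnajc3, Manf and Herpud1 passed under all 8 alternatives that keep every array. With the matched dishes paired 8 passed, and 1908 of all genes. Over 14 arrays, where 1 passed (325 of all genes), 2 passed with probe sets averaged per gene (Ero1a and Derl2, 440 of all genes). The count was 0 with the stricter filter, 0 on the 12 arrays at shared densities, 0 with no replicate block and 0 with the 7 matched pairs as the replicate block. In those 0 to 2 of all genes were called. The count ran from 0 to 2 with each array left out, where 0 to 1269 of all genes were called. The cause was not tested. In A, Hspa5 turned to 0.040 (limma adjusted p = 0.562) with the mean of its probe sets, and Ern1, at 0.01, ran from -0.017 (adjusted p = 0.834, without the MMP3 100K dish of A) to 0.045 with each array left out. In B, for the density slopes, the interaction and the difference between experiments, 0 of the 31 genes passed under any alternative run. Counts at an unadjusted p under 0.05 in the main fits were 2, 4, 6, 0, 1 and 3. The shares of all tested genes beside them were 11.6%, 11.5%, 29.7%, 3.98%, 1.93% and 13.7%. The number of arrays, and in A the few degrees of freedom, limit what can be called.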
